A study of Homo sapiens with 8 samples.

Results

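The 10 genes described here encode subunits of the Polycomb repressive complexes PRC2 and PRC1, and BCOR, a partner of one form of PRC1. Their symbols were matched to the Ensembl gene identifiers of the gene-level files, and all 10 were found among 60675 genes. All 10 passed the filter on low counts that kept 19499 genes for testing. The samples were H9 (WA09) human embryonic stem cells (hESCs), an established line, at passages in the 40s (P1), 100s (P2), 200s (P3) and 300s (P4), with 2 samples of each, grown without feeder cells on Matrigel in mTeSR1 medium with no drug or genetic change labelled. The 4 lines are successive passages of 1 line, so that time in culture and any other difference between the lines cannot be told apart, and the study describes a gain on the long arm of chromosome 20 in P3 and P4 hESCs. The labels do not say whether the 2 samples of a line came from separate cultures, so the p-values measure only the spread between these samples, which may be technical.

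Polycomb complexes keep developmental genes silent. PRC2 places methyl groups on lysine 27 of histone H3: EZH2 is its catalytic subunit, SUZ12 and EED are core subunits that its activity needs, and JARID2 is an accessory subunit that helps recruit it. PRC1 places ubiquitin on histone H2A through the RING proteins RNF2 (RING1B) and RING1 (RING1A). Each PRC1 complex holds 1 PCGF protein, and PCGF1 defines the form called PRC1.1, which also contains BCOR and KDM2B, a protein that binds unmethylated CpG sites. CBX7 is the reader of the H3 mark in canonical PRC1 and is known as a prominent CBX protein of pluripotent cells. In hESCs these complexes cover the promoters of many lineage regulators, HOX genes among them.

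P1 and P2 hESCs are called early and P3 and P4 hESCs late in what follows, as in the study's split by the survival of the cells. No member passed the test of late against early hESCs. The PRC2 subunits and KDM2B had late to early folds between 1.01 and 1.18, and the lowest fold was that of BCOR, 0.609. BCOR levels in P3 and P4 hESCs were themselves split, with 1 library of each line near the early level and 1 library well below it. Both BCOR and RING1 were lower in CPM in all 4 late libraries than in any early one. Groups apart in this way, in either direction, were found for 17.6% of all tested genes. PCGF1 was lowest in P3 hESCs and CBX7 was lowest in P3 hESCs. Among the other Polycomb genes, ASXL1 was the 1 gene called as higher in late than in early hESCs, a call that was lost when any of 5 single libraries was left out.

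The libraries held between 26874899 and 38095600 estimated gene counts. The mitochondrial share of the counts was 6.55% and 6.72% in P2 hESCs, but it differed between the samples of the other lines, at 9.84% and 18.5% in P1, 18.4% and 7.53% in P3, and 17.2% and 5.89% in P4. All 10 pluripotency markers examined, POU5F1 among them, averaged at least 1 TPM. Their summed level was 3592 to 5198 TPM in P1 and P2 and 3603 to 5215 TPM in P3 and P4 hESCs. POU5F1 was the largest part (mean 1706 TPM), and the sum does not show each marker. PODXL was at 494 to 610 TPM in P1 and P2 and 260 to 369 TPM in P3 and P4 hESCs, though 0 of the 10 were called. The 8 fibroblast markers summed to 462.5 to 631.7 TPM in P1 and P2 and 494.2 to 779 TPM in P3 and P4 hESCs: THY1 (mean 417 TPM), COL1A1 (86.0 TPM), COL1A2 (52.2 TPM) and PDGFRB (4.88 TPM) were expressed, POSTN reached at most 1.58 TPM, and COL3A1, LUM and DCN were at most 0.18 TPM in any library. The 6 neural markers summed to at most 1.55 TPM in any library, the 7 endoderm markers to at most 16.5 TPM, the 6 mesoderm markers to at most 8.05 TPM and the 6 trophoblast markers to at most 18.6 TPM.

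Levels between genes were compared in TPM, which is scaled by gene length. Over the 8 samples, JARID2 (mean 65.4 TPM), BCOR (53.9 TPM), KDM2B (43.3 TPM) and RNF2 (35.9 TPM) had higher means than EZH2 (19.8 TPM), RING1 (16.6 TPM), EED (15.5 TPM), SUZ12 (13.8 TPM), PCGF1 (9.83 TPM) and CBX7 (6.20 TPM). The order at the top differed between the groups: BCOR led in early libraries (69.9 TPM, against 62.9 TPM for JARID2) and was below KDM2B in late ones (38.02 against 42.29 TPM). The lowest values of BCOR (25.2 TPM) and RNF2 (23.0 TPM) were also below the highest EZH2 value. Neighbours in this order often overlapped: the 8 values of EZH2, 15.5 to 30.3 TPM, overlapped those of RING1, 12.4 to 19.3 TPM, of EED, 11.5 to 20.8 TPM, and of SUZ12, 9.91 to 18.1 TPM. The lowest KDM2B value, 30.0 TPM, was above all values of RING1, EED, SUZ12, PCGF1 and CBX7. The spread over the 8 samples, as the SD in percent of the mean TPM, was least for KDM2B (15.1%) and RING1 (16.0%) and greatest for CBX7 (42.5%), BCOR (36.8%) and PCGF1 (29.7%).

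**Figure D1:**
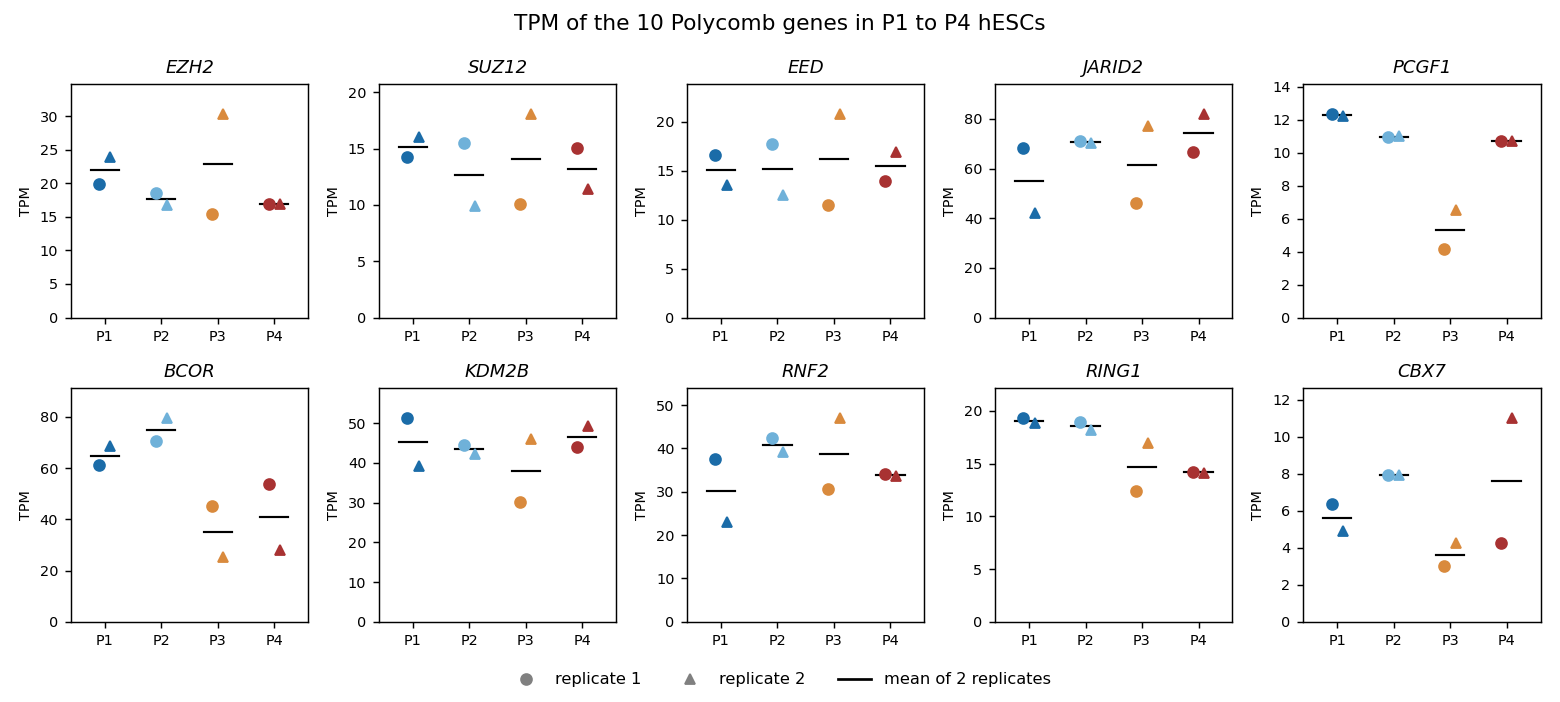
TPM of each of the 10 genes (y axis, linear from 0) in P1, P2, P3 and P4 hESCs (x axis). Circles and triangles are replicates 1 and 2 and bars the mean of the 2. The 4 late values of BCOR (25.2 to 53.8 TPM) lie below its 4 early values (61.0 to 79.4 TPM), and PCGF1 is lowest in the 2 P3 libraries (4.17 and 6.49 TPM).

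Levels of a gene in different libraries are given in CPM, its share of a library's counts after scaling by the TMM method of edgeR. EZH2 measured 40.7 and 54.3 CPM in P1, 34.3 and 31.0 in P2, 40.2 and 56.5 in P3, and 39.0 and 35.2 CPM in P4 hESCs. The 2 groups overlapped, and its highest value was in P3 replicate 2 and its next highest in P1 replicate 2. The fitted log2 fold change of late against early was 0.09 ± 0.20 (SE, n = 4 against 4), with an adjusted p of 0.813 by the quasi-likelihood test of edgeR, adjusted over 19499 genes by the Benjamini-Hochberg method. SUZ12, the subunit that holds the PRC2 core together, was at 46.8 and 58.8 CPM in P1, 45.5 and 33.4 in P2, 48.6 and 58.1 in P3, and 59.5 and 36.7 CPM in P4 hESCs. Its replicates differed by up to 1.62 times within a line (P4), and its log2 fold change was 0.14 ± 0.20 (edgeR adjusted p = 0.707). SUZ12 counts were not whole in every library, which RSEM gives where reads were shared with other loci, and its level is less certain for that reason.

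EED, the subunit that binds the methylated histone tail, was at 22.6 and 20.2 CPM in P1, 23.7 and 17.7 in P2, 22.8 and 27.8 in P3, and 22.8 and 23.0 CPM in P4 hESCs. The groups overlapped, and P3 replicate 2 was the highest of the 8. Its log2 fold change was 0.20 ± 0.15 (edgeR adjusted p = 0.442). JARID2 had 303 and 221 CPM in P1, 304 and 311 in P2, 288 and 338 in P3, and 354 and 360 CPM in P4 hESCs. P1 replicate 2 was the lowest value, and both P4 libraries were above the other 6. The log2 fold change of late against early was 0.24 ± 0.15 (edgeR adjusted p = 0.348), and that of P4 against P1 was 0.45 ± 0.20 (edgeR adjusted p = 0.227).

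RNF2, the main RING E3 ligase by level here, was at 47.4 and 34.8 CPM in P1, 45.4 and 38.4 in P2, 57.3 and 58.2 in P3, and 49.3 and 34.5 CPM in P4 hESCs. Both P3 libraries were above all others, and the other lines overlapped. Its log2 fold change was 0.26 ± 0.18 in late against early (edgeR adjusted p = 0.391) and 0.49 ± 0.23 in P3 against P1 (edgeR adjusted p = 0.176). RING1 was at 23.2 and 26.5 CPM in P1, 22.0 and 22.4 in P2, 20.3 and 19.9 in P3, and 21.1 and 17.2 CPM in P4 hESCs. All 4 late values were below the 4 early ones, but the groups were separated by less than 1 CPM. The log2 fold change was -0.26 ± 0.14 (edgeR adjusted p = 0.270).

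KDM2B was the least changed member, with 134 and 122 CPM in P1, 108 and 111 in P2, 106 and 115 in P3, and 140 and 120 CPM in P4 hESCs. Its groups overlapped fully, with a log2 fold change of 0.02 ± 0.14 (edgeR adjusted p = 0.946). Its counts were not whole in every library, its exons overlap RNF34 on the opposite strand, and the strand setting of the counting is not given in the sources used here. PCGF1 was at 6.82 and 8.19 CPM in P1, 7.01 and 7.17 in P2, 4.803 and 4.239 in P3, and 7.69 and 7.40 CPM in P4 hESCs, from 152 to 288 counts per library. Both P3 libraries were below the other 6, which lay between 6.82 and 8.19 CPM. The log2 fold change was -0.73 ± 0.26 in P3 against P1 (edgeR adjusted p = 0.0856) and 0.74 ± 0.26 in P4 against P3 (edgeR adjusted p = 0.148), against -0.28 ± 0.23 in late against early (edgeR adjusted p = 0.491).

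CBX7 was at 17.8 and 16.6 CPM in P1, 19.6 and 18.6 in P2, 9.42 and 11.1 in P3, and 12.3 and 27.1 CPM in P4 hESCs. Of the late libraries, 3 were below all early ones and P4 replicate 2 was above all of them. The log2 fold change of late against early was -0.28 ± 0.29 (edgeR adjusted p = 0.590), and without P4 replicate 2 it was -0.73 (edgeR adjusted p = 0.0207). In P3 against P1 it was -0.74 ± 0.31 (edgeR adjusted p = 0.135), and in P4 against P3 it was 0.94 ± 0.31 (edgeR adjusted p = 0.123), which fell to 0.26 without P4 replicate 2. CBX7 shares exon sequence with the pseudogene COX5BP7 on its own strand and with an antisense gene, and its counts were not whole in every library.

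BCOR was the member with the widest difference. It was at 272 and 288 CPM in P1, 310 and 349 in P2, 265 and 105 in P3, and 261 and 110 CPM in P4 hESCs, from 3274 to 12723 counts per library. P3 replicate 1 and P4 replicate 1 were close below P1, while P3 replicate 2 and P4 replicate 2 were far lower. The replicates of P3 differed 2.51 times and those of P4 differed 2.37 times, against 1.06 and 1.13 times in P1 and P2. The log2 fold change of late against early was -0.72 ± 0.30 (edgeR unadjusted p = 0.0331, adjusted p = 0.158).

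The BCOR difference between single lines rested on 1 library in each. P3 against P1 was -0.59 ± 0.40 (edgeR adjusted p = 0.350), -0.07 without P3 replicate 2 and -1.40 without P3 replicate 1. P4 against P1 was -0.59 ± 0.40 (edgeR adjusted p = 0.432), -0.10 without P4 replicate 2 and -1.35 without P4 replicate 1. The 2 libraries with low BCOR had mitochondrial shares of 7.53% and 5.89% and the other 2 late libraries had 18.4% and 17.2%. In each of the 4 lines the library with the higher share had the higher BCOR, though the 2 P2 shares were nearly equal. The same held for PCGF1 and RING1 in all 4 lines, and the reverse for EED and CBX7. How many of all tested genes follow the share in this way was not counted, so it is not read as particular to these members. Between lines, the P2 libraries, with shares of 6.55% and 6.72%, had the highest BCOR of the series. With the mitochondrial share as a covariate the log2 fold change of late against early was -0.98 (edgeR adjusted p = 0.0469). The share's part in the split was otherwise not tested.

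**Figure D2:**
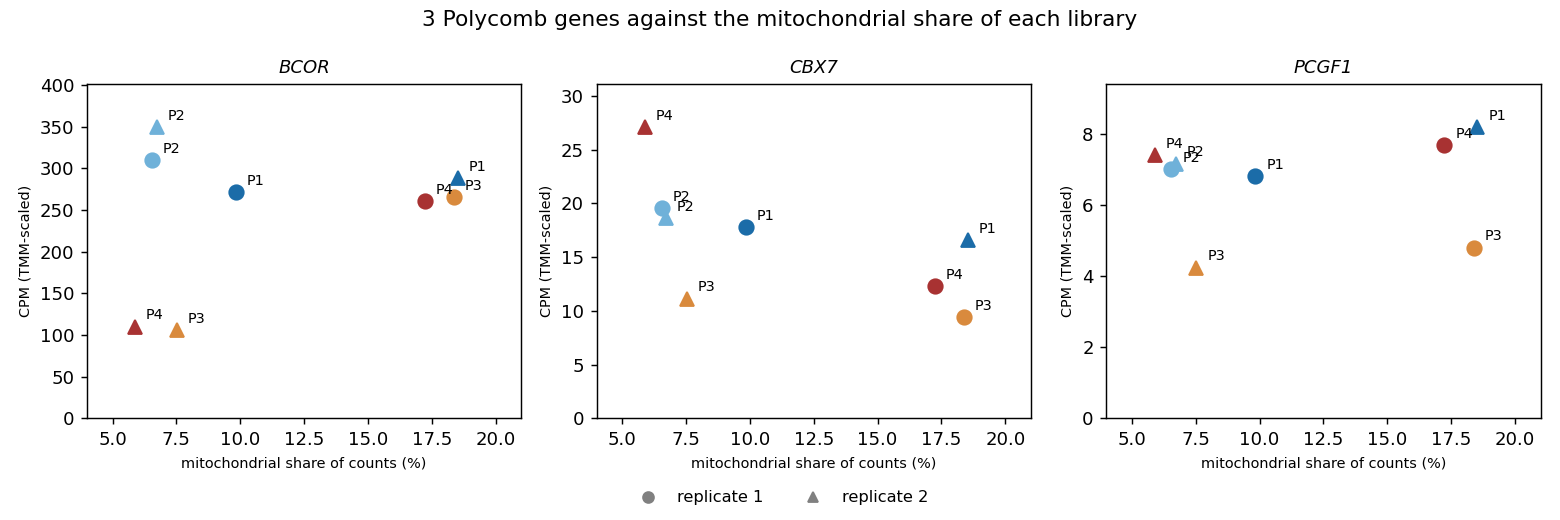
CPM of BCOR, CBX7 and PCGF1 (y axes, linear from 0) against the mitochondrial share of counts in percent (x axes) in the 8 libraries, labelled by line, with circles for replicate 1 and triangles for replicate 2. BCOR is at 105 and 110 CPM in the P3 and P4 libraries with shares of 7.53% and 5.89%, and at 310 and 349 CPM in the P2 libraries with shares of 6.55% and 6.72%.

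Of the 10 members, 0 were called in late against early at an edgeR adjusted p under 0.01, against 2.45% of all tested genes, and against 2.20% when an absolute log2 fold change above 1 was also required. At an unadjusted p under 0.05, 1 member (BCOR) passed, against 25.5% of all tested genes. DESeq2 called 0 members, with 1 at an unadjusted p under 0.05, and limma on log2(TPM + 1) called 0, with 1. The median log2 fold change of the members was 0.06, with 6 positive and 4 negative values, and that of all tested genes was 0.01. All 4 PRC2 members had positive values (median 0.17), and 4 of the 6 PRC1 members had negative ones (median -0.27), none of them past the threshold. In P3 against P1, 4 PRC2 members and 1 PRC1 member were positive. In P4 against P1, 2 PRC2 members and 4 PRC1 members were positive.

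Groups that did not overlap were found for 2 of the 10 members in CPM, against 17.6% of all tested genes. In TPM, 3 members, BCOR, RING1 and PCGF1, had all late values below all early values, against 12.4% of all tested genes with groups apart in either direction. For PCGF1 this did not hold in CPM, where the P4 values (7.69 and 7.40) lay within the early range of 6.82 to 8.19. The TPM scale ran lower in late than in early libraries, with a median log2(TPM + 0.1) difference of -0.14 over all tested genes against 0.01 for the counts. This did not hold for each late line: the median was -0.13 in P3 against P1 but 0.02 in P4 against P1, and 0.19 in P2 against P1. P3 replicate 1, which had the lowest TMM factor (0.831), also had the lowest TPM of the 8 for EZH2, KDM2B, RING1, PCGF1, CBX7 and EED.

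A test of any difference among the 4 lines called 0 members, against 4.79% of all tested genes, and 1 member (CBX7) had an unadjusted p under 0.05, against 31.5%. DESeq2 called 0 there, with 2 at an unadjusted p under 0.05. In P2 against P1, 0 members and 0% of all tested genes were called, and EZH2 alone had an unadjusted p under 0.05 (log2 fold change -0.54 ± 0.23, edgeR adjusted p = 0.523), against 9.14% of genes. In P3 against P1, 0 members were called against 4.0% of genes, and 2 members (PCGF1 and CBX7) against 29.5% had an unadjusted p under 0.05. In P4 against P1, 0 members were called against 2.12% of genes, and 1 member (JARID2) against 21.5% passed without adjustment. In P4 against P3, 0 members were called against 0.815% of genes, and 2 members (PCGF1 and CBX7) against 19.2% passed without adjustment. DESeq2 called 0 members in each of these 4 comparisons, with 1, 3, 1 and 2 at an unadjusted p under 0.05. The comparisons with P1 share the P1 samples. The test across the 4 lines called BCOR in 2 alternatives, with genes of low counts kept (edgeR adjusted p = 0.0023) and with the mitochondrial share as a covariate (0.00871), against 0.288 in the fit reported.

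**Figure D3:**
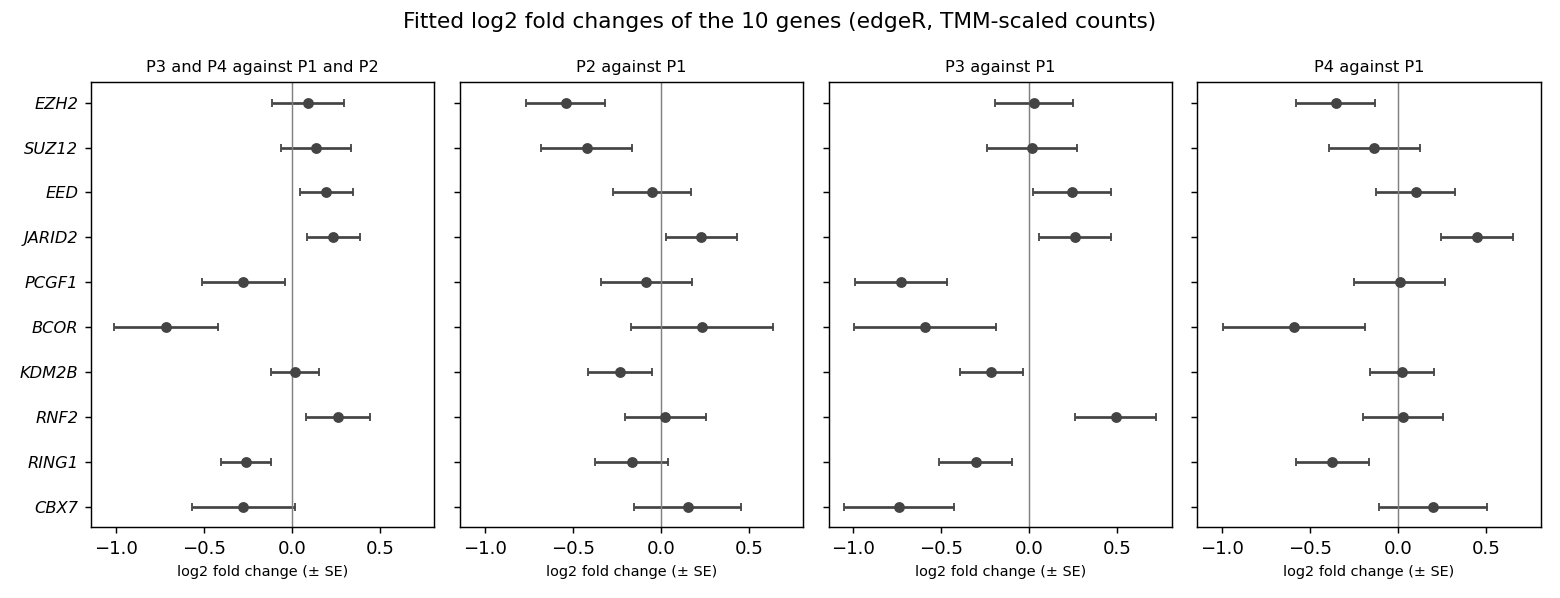
Fitted log2 fold changes (x axis) of the 10 genes (y axis) in 4 comparisons, with bars of 1 SE from edgeR. BCOR has the lowest value in late against early, -0.72 ± 0.30, and KDM2B the one closest to 0, 0.02 ± 0.14.

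Sequences upstream of BCOR and RING1 are shown because these were the members whose late and early libraries did not overlap in CPM, and because KDM2B, the CpG-binding subunit, joins BCOR in PRC1.1. They are from RefSeq on GRCh38.p14, on the strand of the gene, 5′ to 3′, with CpG sites in capitals, and they end before the gene in the annotation used here. The BCOR stretch is chrX:40177330-40177479 on the minus strand, with 2 CpG sites, and the RING1 stretch is chr6:33208345-33208494 on the plus strand, with 24.
BCOR: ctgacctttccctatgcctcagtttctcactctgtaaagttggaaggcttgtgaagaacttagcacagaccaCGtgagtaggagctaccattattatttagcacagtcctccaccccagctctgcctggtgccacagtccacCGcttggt
RING1: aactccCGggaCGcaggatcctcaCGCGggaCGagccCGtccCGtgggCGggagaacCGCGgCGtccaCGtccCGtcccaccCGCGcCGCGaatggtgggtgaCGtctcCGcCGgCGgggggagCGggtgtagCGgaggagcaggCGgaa

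Over the 250 bases before the RefSeq start, the members held 5 (BCOR) to 41 (CBX7) CpG sites, with a median of 28, and 9 of the 10 held at least 10, as did 51.9% of 27305 RefSeq promoters, whose median was 11. BCOR was the only member below 10 in this window, which is placed at 1 of its start sites and says nothing of the others. BCOR, at chrX:40049815-40177329 on GRCh38, has 12 annotated transcripts in GENCODE 29, and RING1, at chr6:33208495-33212722, has 2. The isoform-weighted length that RSEM gave for BCOR was 4648 bases in P1 replicate 2 and 5160 to 5891 bases in the other libraries. For PCGF1, at chr2:74505043-74508580, it was 881 and 902 bases in P1 and 1231 bases in P3 replicate 1, the library with its lowest TPM.

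Shares of summed TPM were compared between late and early libraries in 5 families of paralogs. A share describes RNA level only, and whether paralogs replace each other was not tested. The permutations treated the 8 libraries as exchangeable, although each line gave 2 of them, so their p-values count libraries rather than lines. EZH2 held 67.8% and 68.2% of the EZH1 and EZH2 sum in P1, 61.9% and 64.2% in P2, 81.5% and 73.4% in P3, and 77.9% and 50.03% in P4 hESCs. The share was lowest in P4 replicate 2, whose EZH1 value, 16.8 TPM, was the highest of the 8. The mean share differed by 5.22 percentage points, less than the late spread of 14.2 (SD, n = 4; exact permutation p = 0.543). BCOR held 89.76% to 97.98% of its sum with BCORL1, which was at 2.30 and 2.56 TPM in P1, 3.71 and 4.47 in P2, 1.57 and 2.87 in P3, and 1.11 and 2.67 TPM in P4 hESCs. In the 2 libraries with low BCOR, the BCOR share was lowest, at 89.76% and 91.28%. There BCORL1 was in TPM above the other library of the same line and above both P1 libraries, but below both P2 libraries. In CPM, BCORL1 was at 10.57 and 10.03 in these libraries, above P1 replicate 1 (9.60) but below P1 replicate 2 (13.08). The mean BCOR share differed by -1.69 points (exact permutation p = 0.429, n = 4 against 4).

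RING1 held 34.0% and 45.0% of the RING1 and RNF2 sum in P1, 30.9% and 31.7% in P2, 28.9% and 26.6% in P3, and 29.3% and 29.7% in P4 hESCs. All late shares were below all early shares, with a mean difference of -6.80 points (exact permutation p = 0.0286, n = 4 against 4), which was -3.60 points without P1 replicate 2. Over the 5 families this was the only p under 0.05, and none remains so after adjustment for the 5 tests (adjusted exact p = 0.143). As 0.0286 is the smallest p possible with 4 against 4, 1 family alone at that p could not pass this adjustment. PCGF1 held 12.9% ± 1.61 of the 6 PCGF paralogs early and 9.19% ± 2.63 late (SD, n = 4; exact permutation p = 0.0571), with 6.63% and 7.27% in P3. PCGF2 and PCGF3 were the largest PCGF shares in every library, at 33.7% to 42.9% and 26.4% to 34.3%. CBX2 led the CBX family with 60.5% to 74.1%, and CBX7 held 6.48% to 17.6%, a mean of 9.67% ± 1.59 early and 9.67% ± 5.31 late (SD, n = 4; exact permutation p = 1). The late mean rested on P4 replicate 2, at 17.6%: the other 3 late shares were 6.48%, 6.83% and 7.80%, and without that library the difference was -2.63 points.

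**Figure D4:**
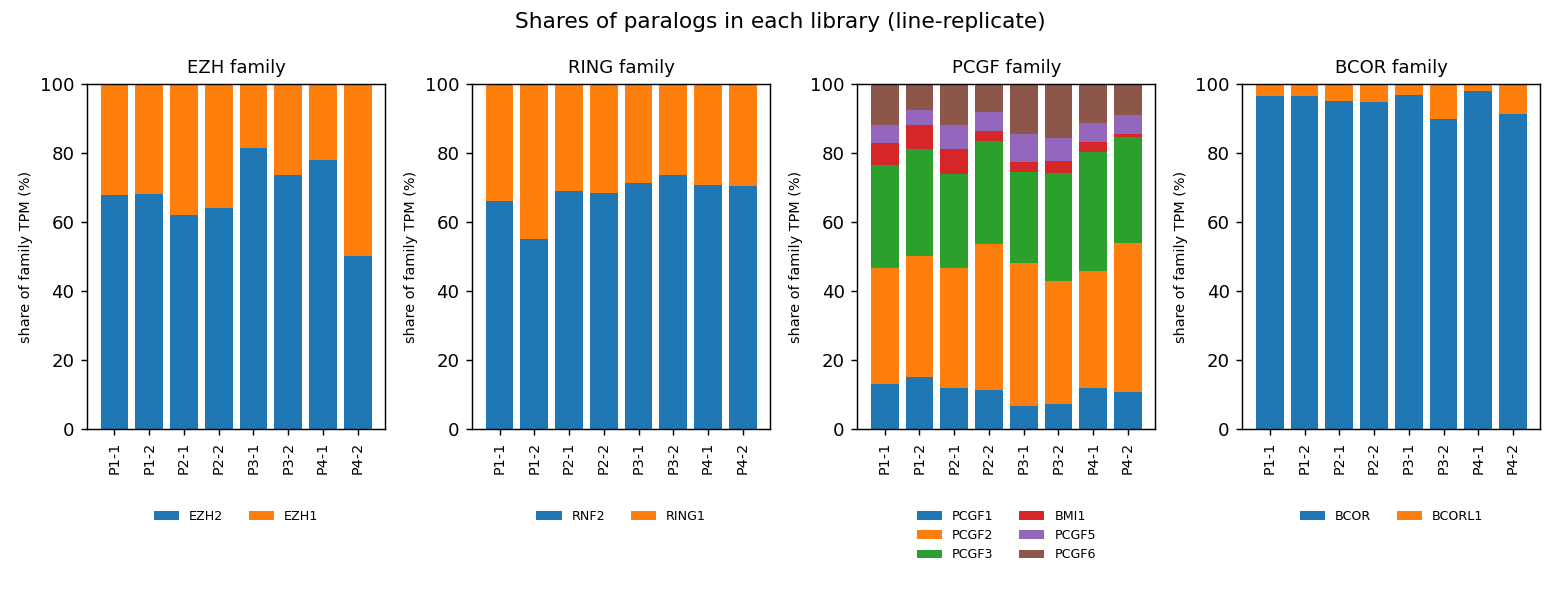
Share of the family's summed TPM (y axes, 0 to 100%) held by each paralog in the 8 libraries (x axes, line and replicate) for the EZH, RING, PCGF and BCOR families. RING1 holds 26.6% to 29.7% of the RING sum in the late libraries and 30.9% to 45.0% in the early ones.

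The other Polycomb genes were taken from a list of 52 subunits and cofactors, of which 51 were tested. At an edgeR adjusted p under 0.01, 1 passed as higher in late hESCs and 0 as lower, against 2.45% of all tested genes in either direction. At an unadjusted p under 0.05 there were 13, against 25.5% of all tested genes, and the median log2 fold change was -0.01, against 0.01. The gene that rose was ASXL1, a subunit of the BAP1 complex that removes ubiquitin from histone H2A, against the action of PRC1. It was at 26.5 and 32.5 CPM in P1, 22.9 and 26.1 in P2, 52.0 and 80.8 in P3, and 46.5 and 50.6 CPM in P4 hESCs, with a log2 fold change of 1.09 ± 0.19 (edgeR adjusted p = 0.00672). All 4 late values were above all 4 early ones. By single lines, ASXL1 rose in P3 against P1 (log2 fold change 1.17 ± 0.23, edgeR adjusted p = 0.00832) but did not pass in P4 against P1 (0.72 ± 0.23, edgeR adjusted p = 0.0943), nor there in any of 17 alternatives (adjusted p of 0.0309 to 0.320). The P3 against P1 call held in 7 of the 17 alternatives. ASXL1 is at chr20:32358330-32439319 on the long arm of chromosome 20, on which the study describes the gain, and copy number and time in culture cannot be told apart here. The call was lost without either P1 library, either P2 library or P3 replicate 1, and the adjusted p with 1 library left out ran from 0.00805 to 0.0291.

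**Figure D5:**
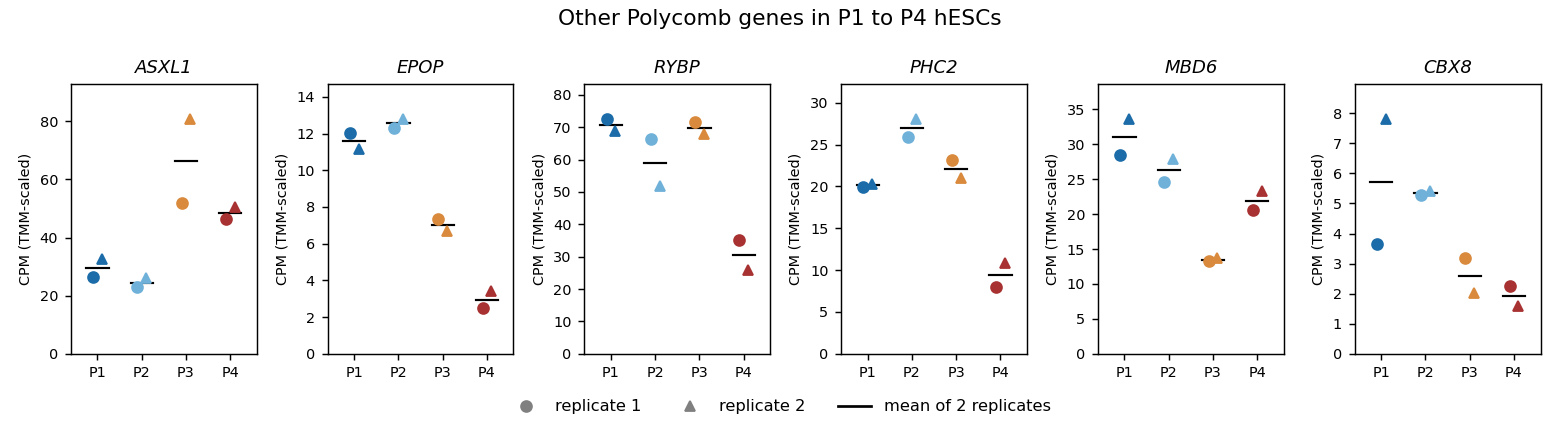
CPM (y axes, linear from 0) of 6 other Polycomb genes in P1, P2, P3 and P4 hESCs (x axes), with circles and triangles for replicates 1 and 2 and bars for their mean. ASXL1 is at 46.5 to 80.8 CPM in the late libraries and 22.9 to 32.5 CPM in the early ones, and EPOP is lowest in P4.

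Across the 4 lines, 4 of the 51 were called (4.79% of all tested genes). They were ASXL1 and, named after their values were seen, EPOP, RYBP and PHC2. EPOP, a PRC2 accessory subunit, was at 12.03 and 11.2 CPM in P1, 12.3 and 12.8 in P2, 7.36 and 6.67 in P3, and 2.47 and 3.40 CPM in P4 hESCs, and it fell in P4 against P1 (log2 fold change -1.98 ± 0.27, edgeR adjusted p = 9.959e-04). RYBP, a subunit of variant PRC1 that includes PRC1.1, was at 72.6 and 68.9 CPM in P1, 66.3 and 51.8 in P2, 71.7 and 68.0 in P3, and 35.1 and 25.7 CPM in P4 hESCs. It fell in P4 against P1 by 1.22 ± 0.21 on the log2 scale (edgeR adjusted p = 0.00549), and its adjusted p was 0.0628 without P4 replicate 2, 0.0367 without P1 replicate 1 and 0.0428 without P1 replicate 2. The EPOP call was at an adjusted p of 0.0101 without P1 replicate 2. Both genes were lowest in the line of longest culture. PHC2, a polyhomeotic subunit of canonical PRC1, was at 19.9 and 20.3 CPM in P1, 25.9 and 28.1 in P2, 23.2 and 21.03 in P3, and 8.03 and 10.9 CPM in P4 hESCs (P4 against P1: log2 fold change -1.09 ± 0.22, edgeR adjusted p = 0.0137). MBD6, of the BAP1 complex and also named after its values were seen, fell in P3 against P1 (13.3 and 13.7 against 28.5 and 33.6 CPM, log2 fold change -1.20 ± 0.21, edgeR adjusted p = 0.00380). That call was lost without either P1 library or either P3 library. With single libraries left out, the log2 fold change ran from -1.295 to -1.073. MBD6 exons overlap those of DDIT3 and DCTN2 on the opposite strand.

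CBX8, a paralog of CBX7, was at 3.64 and 7.81 CPM in P1, 5.28 and 5.41 in P2, 3.19 and 2.01 in P3, and 2.27 and 1.58 CPM in P4 hESCs. All 4 late values were below all 4 early ones, but the log2 fold change of -1.29 ± 0.30 in late against early did not pass (edgeR adjusted p = 0.0262). EZH1 had a log2 fold change of -0.27 ± 0.29, BCORL1 of -0.59 ± 0.24 and OGT, the enzyme that adds GlcNAc and part of the BAP1 complex, of -0.14 ± 0.21 (edgeR adjusted p = 0.598, 0.159 and 0.726).

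The genes that Polycomb is known to silence in hESCs were read from a list of 39 HOX genes and 26 other developmental regulators. No HOX gene reached a mean of 1 TPM in any line, and the highest line mean was that of HOXB1, 0.485 TPM in P4. The summed counts of the 39 HOX genes were 22 and 21 in P1, 115 and 96 in P2, 49 and 27 in P3, and 62 and 37 in P4 hESCs, of at least 26874899 per library, and 24 of the 39 had at most 3 counts in every library. The P2 libraries were the highest and the P1 libraries the lowest. Only 4 HOX genes and 17 of the 26 others could be tested, and 0 of these 21 were called in late against early, against 2.45% of all tested genes, with 12 at an unadjusted p under 0.05, against 25.5%. DESeq2 called 3 of the 21, and 1519 of all 19499 tested genes. Some of the 21, HAND1, HOXB6 and HOXB9 among them, passed the filter on low counts only through P2, where they were high. The shares of the 21 are therefore partly set by the filter. Of the 26 others, 5 reached a mean of 1 TPM in a line.

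Across the 4 lines, 5 of the 21 tested targets were called, against 4.79% of all tested genes. They were FOXA2, EOMES, OLIG2, HAND1 and HOXB9, all named after their values were seen. HAND1 had 76 and 81 counts in P2 and at most 5 elsewhere, and HOXB9 had 29 and 13 in P2 and at most 1 elsewhere. Both passed the filter on low counts through P2 alone, where they were high, so their calls are partly set by the filter. FOXA2, an endoderm factor, was at 0.53 and 0.47 TPM in P1, 0.37 and 0.32 in P2, 2.72 and 3.63 in P3, and 0.26 and 0.08 TPM in P4 hESCs. It rose in P3 against P1 (log2 fold change 2.76 ± 0.44, edgeR adjusted p = 0.00244) and fell in P4 against P3 (-4.25 ± 0.50, edgeR adjusted p = 7.819e-04). FOXA2 exons overlap those of AL121722.1, a protein-coding gene on the same strand. EOMES, a mesendoderm factor, was at 0.54 and 0.28 TPM in P1, 1.52 and 0.95 in P2, 0.03 and 0.04 in P3, and 0.26 and 0.32 TPM in P4 hESCs, and fell in P3 against P1 (log2 fold change -3.25 ± 0.55, edgeR adjusted p = 0.00313). OLIG2, a neural factor, was at 0.73 and 0.59 TPM in P1, 1.63 and 1.72 in P2, 0.08 and 0.10 in P3, and 0.23 and 0.82 TPM in P4 hESCs, and fell in P3 against P1 (log2 fold change -2.57 ± 0.52, edgeR adjusted p = 0.00907). HAND1, a mesoderm factor, was at 1.57 and 1.85 TPM in P2 and at most 0.14 TPM elsewhere, and HOXB9 was at 0.39 and 0.19 TPM in P2 and at most 0.01 TPM elsewhere. The P3 against P1 calls of EOMES and OLIG2 were lost without either P1 library and without either P3 library (OLIG2 also without either P2 library), and that of FOXA2 without either P1 library or P3 replicate 1, with adjusted p of at most 0.046 over the left-out libraries. Over all 17 alternatives, EOMES was called in 11 (adjusted p up to 0.158, on log2(TPM + 1)), OLIG2 in 7 (up to 0.105), FOXA2 in P3 against P1 in 13 (up to 0.0410) and FOXA2 in P4 against P3 in all 17. P3 hESCs, in which PCGF1 and CBX7 were lowest, had the highest FOXA2 and the lowest EOMES, and a relation between these levels was not tested. Neither PCGF1 nor CBX7 was called in P3 against P1, where 7 of the 21 tested targets had positive and 13 negative values.

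For EZH2, KDM2B and BCOR, the genes with the most similar CPM profiles were read over the 8 samples, as Pearson's r of log2(CPM + 1) and as a description, since the same libraries enter both. They were PABIR2 (0.969), SMAD4 (0.963) and SLC16A4-AS1 (0.955) for EZH2. For BCOR they were ECI1 (0.968), CCNE2 (0.960) and ARSD (0.958), and CCNE2 was at 4.13 and 3.94 CPM in the 2 libraries with low BCOR and 8.10 to 13.15 CPM in the others. For KDM2B they were ODCP (0.914), BLOC1S4 (0.911) and GTF2A1L (0.896), of which ODCP and GTF2A1L were below 0.5 CPM in every library.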

How the data were processed

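Stranded mRNA libraries of hESCs at 4 passages, 2 per line, were sequenced. Per the labels, the authors' processing named FastQC, Trim Galore, STAR 2.7.3a, RSEM 1.3.3 and GRCh38. The authors deposited an expected count per gene and sample, which is not normalized, and a TPM value, which RSEM scales by effective length; the annotation release and the strand setting are not given in the sources used here. Expected counts were rounded and tested in R 4.3.3 with edgeR 4.0.16 (TMM, filterByExpr by line, quasi-likelihood test, Benjamini-Hochberg adjustment over 19499 genes), with late (P3 and P4) against early (P1 and P2) in a 2-group model and single lines in a 4-group model. A gene was called at an adjusted p under 0.01. Standard errors are the log2 fold change over the square root of F. DESeq2 1.42.0 and limma 3.58.1 were alternatives. Shares were tested by exact permutation in Python 3.11.15 with scipy 1.17.1. The permutation and the 2-group model both treat the 2 libraries of a line as independent. Positions came from GENCODE 29. A depth of 26874899 to 38095600 counts places 3 counts at 0.0787 to 0.112 CPM of the raw totals.

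The members and lists were chosen with earlier results of these data known. All 10 members were named, with ASXL1, EZH1, BCORL1, OGT and the paralogs among other Polycomb genes, together with genes called in late against early, HOX genes of at least 1 TPM, and the 3 genes most like EZH2, KDM2B and BCOR; genes outside this rule are marked, and 1 gene of the lists is not reported here. The fits were tested on simulated data.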

Additional observations from a re-analysis of the deposited data

Results flagged for a closer look

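Of 30 groups of 4 samples examined (early or late, for 15 genes), 2 held a sample apart from its group by Dixon's criterion, where chance gives about 1 in 20 groups. EED in P3 and P4 hESCs had a gap ratio of 0.944, with P3 replicate 2 at 27.8 CPM and the others at 22.8 to 23.0 CPM. JARID2 in P1 and P2 hESCs had a gap ratio of 0.923, with P1 replicate 2 at 221 CPM and the others at 303 to 311 CPM. FOXA2 differed between P3 and P4 hESCs by edgeR's test of that difference, with a log2 fold change of -4.25.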

How the results depend on the processing

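The count of members called was 0 in late against early and in each comparison of single lines under every alternative run. Across the 4 lines it was 1 (BCOR) with no filter on low counts and 1 (BCOR) with the mitochondrial share as a covariate, an alternative chosen after seeing the data, and 0 under the others; the cause was not tested. A fold minimum could not be applied across the 4 lines, which give no single fold change. Among the other Polycomb genes, late against early, 4 were called with the 4-group model, 4 with DESeq2, 4 at an adjusted p under 0.05, 3 with the covariate and 3 without the filter, against 1, and 0 to 1 with single libraries left out: the ASXL1 call was lost without either P1 library, either P2 library or P3 replicate 1, at adjusted p of up to 0.0291. With limma ASXL1 had adjusted p of 0.0543 and 0.0497. Across the 4 lines the count was 10 with DESeq2, 12 without the filter, 7 at an adjusted p under 0.05 and 0 on either TPM scale, against 4, and 1 to 5 with single libraries left out, EPOP being called in each. Among the targets, late against early, it was 4 with the 4-group model, 3 with DESeq2, 3 without the filter and 2 at an adjusted p under 0.05, against 0. Across the 4 lines it was 14 without the filter, 11 at an adjusted p under 0.05 and 3 on log2(TPM + 0.1), against 5, and 3 to 5 with single libraries left out.

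The members near 0 changed sign. On log2(TPM + 1) and log2(TPM + 0.1), late against early, EZH2 was -0.033 and -0.036, SUZ12 -0.037 and -0.040, and KDM2B -0.083 and -0.085, all above the median of all tested genes on those scales, -0.092 and -0.14. With single libraries left out EZH2 ran from -0.0704 to 0.274 and KDM2B from -0.0596 to 0.0758. The other 7 members kept their sign in all 17 alternatives. The mean CBX7 share difference ran from -2.63 to 1.07 percentage points, the former without P4 replicate 2. In the share tests, 1 family passed with all libraries and 0 with 1 left out, where the smallest p possible is 0.0571.

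The replicate block changed no member's call: members called late against early stayed at 0, ASXL1 was again the 1 other gene called, and 367 genes in all were called with the block against 478. With it BCOR was -0.85, adjusted p 0.0867. Differences between same-numbered replicates correlated across genes with r between -0.133 and 0.195 over pairs of lines, so the numbers were not taken to pair the samples. Depth is low for PCGF1 (152 to 288 counts per library), CBX8 (47 to 248) and EPOP in P4 (72 and 101).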
